A study of Sus scrofa with 3 samples.

Results

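Aminoacyl-tRNA synthetases, together with the transcription factor ATF4 and genes known to respond to amino acid shortage, were examined in 3 pig cell populations. Members were 36 genes whose symbols follow the naming pattern of the synthetases (a one-letter amino acid code followed by ARS, with EPRS, FARSA and FARSB) and 13 genes listed by name, 49 of the 26466 gene symbols in the count files. All 49 had at least 1 count in each library. HARS2, the mitochondrial histidyl enzyme, was not analysed here.

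Each population was represented by 1 library made from total RNA with a Lexogen QuantSeq kit, which counts fragments near the 3' end of transcripts. The populations were mesenchymal stem cells derived from pig bone marrow (BM-MSC), pig cells labelled as bone marrow attached cells (BMAC) and pig mononuclear cells of peripheral blood (PBMC). The labels give no strain, age, treatment or time for any population, and neither the isolation or culture of the cells nor the animals of origin are described. The stated aim was to compare gene expression between the 3 populations.

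A synthetase joins a given amino acid to its transfer RNA, and separate nuclear genes encode most of the enzymes of the cytosol and those of the mitochondria. When amino acids run short, uncharged transfer RNA activates the kinase GCN2 (EIF2AK4), which phosphorylates the translation factor eIF2. General protein synthesis then slows while ATF4 messenger RNA is translated more, and ATF4 turns on genes for amino acid synthesis, amino acid uptake and many cytosolic synthetases. Endoplasmic reticulum stress reaches ATF4 through another kinase, PERK (EIF2AK3). Because ATF4 is controlled largely at translation, its messenger RNA level is not a measure of its activity.

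Total counts were 17069344 in BM-MSC, 15122997 in BMAC and 15445903 in PBMC, and the 49 members took 0.331%, 0.370% and 0.165% of them in that order. Levels are counts per 1000000 (CPM), and a count of 3 corresponds to 0.176 CPM in BM-MSC, 0.198 in BMAC and 0.194 in PBMC. The labels were checked against markers: 6 stromal genes summed to 13126 CPM in BM-MSC, 10873 in BMAC and 51.99 in PBMC, and PTPRC, the leukocyte antigen CD45, stood at 1.11 CPM in BM-MSC, 1.85 in BMAC and 2884 in PBMC. Among the stromal genes THY1 made up most of the PBMC sum, at 364 CPM in BM-MSC, 69.8 in BMAC and 48.7 in PBMC. THY1 was thus only 1.43-fold higher in BMAC than in PBMC, where the other 5 were more than 4-fold higher. T cell markers (5 genes) summed to 6.91 CPM in BM-MSC, 3.57 in BMAC and 1455 in PBMC, B cell markers (4) to 4.28 CPM in BM-MSC, 3.50 in BMAC and 1984 in PBMC, NK markers (3) to 0.293 CPM in BM-MSC, 0.331 in BMAC and 179 in PBMC and monocyte markers (4) to 6.56 CPM in BM-MSC, 17.6 in BMAC and 376 in PBMC, where CD14 alone made up 17.3 CPM in BMAC. CD14 stood at 3.63 CPM in BM-MSC and 12.9 in PBMC, so against the sum it was higher in BMAC than in PBMC. Of these 16 leukocyte markers, 4 in BM-MSC and 5 in BMAC had 0 counts, and in PBMC 0 of 16 did. The endothelial markers CDH5 and KDR and the erythroid marker HBB were under 2 CPM in every library, while PECAM1, which leukocytes also carry, stood at 15.2 CPM in BM-MSC, 27.7 in BMAC and 145 in PBMC. The 5 ribosomal RNA rows took 15.5%, 11.4% and 5.29% of counts in BM-MSC, BMAC and PBMC. In such bulk samples fewer cells of a type and less RNA per cell cannot be told apart, and the part of cell type makeup or of ribosomal RNA content in the differences below was not tested.

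With 1 library per population no difference has a replicate check, and no test between populations was run. A gene was counted as higher or lower when log2((CPM + 1)/(CPM + 1)) was at least 1 in size, or 2-fold, provided that the larger of the pair reached 10 CPM and 10 counts (the floor). Folds are ratios of CPM without pseudocount, and the intervals in parentheses or brackets beside them are 95% exact conditional intervals, which cover counting error only.

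Differences from PBMC ran mostly upwards among the members of both marrow populations. In BM-MSC against PBMC 42 members were above the floor, of which 19 were 2-fold higher in BM-MSC, where the share over 11428 genes was 26.4%, and 2 were lower, where it was 31.8%. In BMAC against PBMC 41 were above the floor, with 20 higher in BMAC against a share of 24.8% of 11371 genes and 0 lower against 26.4%. The 4-fold rule was passed upwards by 9 members in each comparison, where 14.3% and 14.0% of genes passed it. The median log2 ratio of the members above the floor was 0.81 in BM-MSC against PBMC and 0.79 in BMAC against PBMC, with medians of -0.16 and -0.12 over all genes. Over all 49 members regardless of the floor it was 0.54 and 0.76. Of the members above the floor, 9 in BM-MSC against PBMC and 8 in BMAC against PBMC reached 10 CPM in the marrow library alone, which favours a call in that direction, so the counts and medians are a description. Both comparisons share the PBMC library. Scaling with TMM factors moved the medians over all genes to 0.23 and 0.21. Upward calls then made up 56.9% of all calls in BM-MSC (45.4% with library totals) and 59.5% in BMAC (48.4%). Relative to those medians the members' medians stood at 0.92 and 0.87 (0.97 and 0.91 with library totals).

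**Figure D1:**
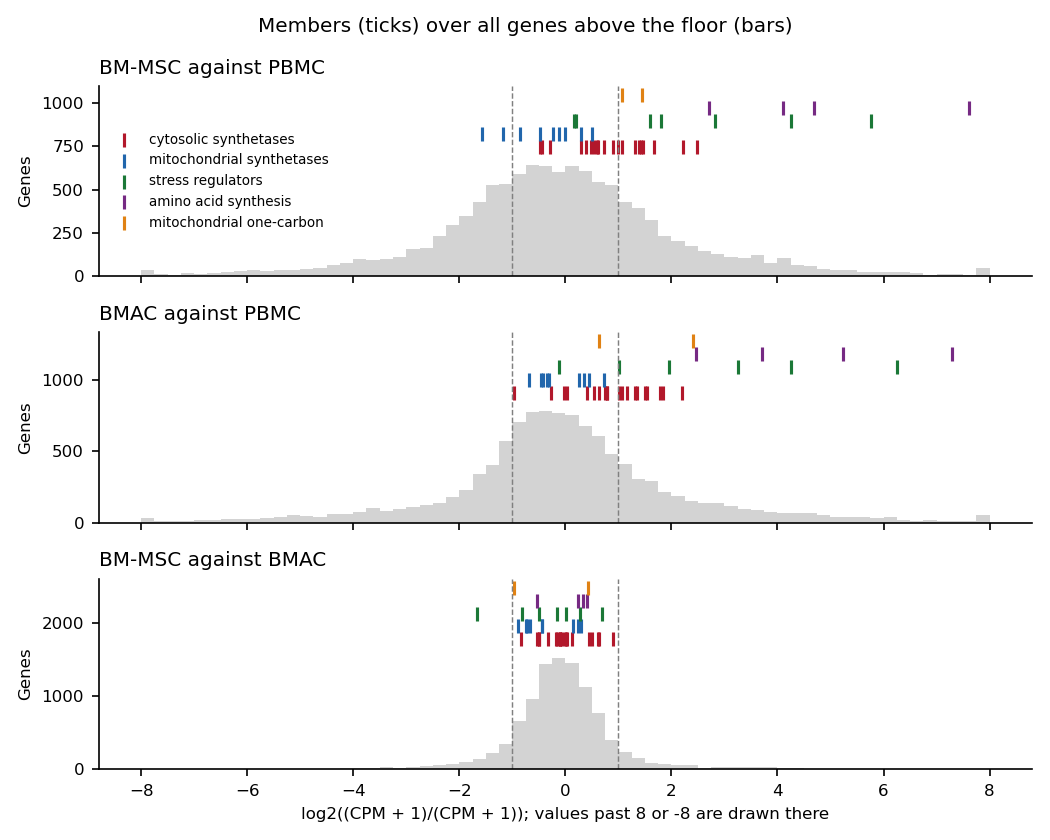
Grey bars count genes above the floor by log2 ratio in each comparison, ticks mark the members by role, and dashed lines mark 2-fold. Ticks of the amino acid synthesis genes and several stress regulators lie far to the right against PBMC, whereas in BM-MSC against BMAC 41 of 42 members lie between the dashed lines.

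The 4 amino acid synthesis genes showed the largest ratios as a group. PHGDH, PSAT1 and PSPH catalyse the successive steps from a glycolytic intermediate to serine, and ASNS makes asparagine from aspartate. PSAT1, the aminotransferase of the second step, stood at 399 CPM (6804 counts) in BM-MSC, 317 CPM (4796 counts) in BMAC and 1.04 CPM (16 counts) in PBMC. It was 385-fold (237 to 674) higher in BM-MSC and 306-fold (188 to 536) higher in BMAC than in PBMC. PHGDH, the dehydrogenase of the first step, stood at 60.1 CPM (1026 counts) in BM-MSC, 87.7 CPM (1326 counts) in BMAC and 1.36 CPM (21 counts) in PBMC, which was 44.2-fold (28.8 to 71.7) above PBMC in BM-MSC and 64.5-fold (42.01 to 105) above it in BMAC. The whole serine route was thus below 2 CPM in PBMC and above 30 CPM in both marrow libraries. PSPH, the phosphatase of the last step, stood at 44.1 CPM (753 counts) in BM-MSC, 33.1 CPM (500 counts) in BMAC and 1.62 CPM (25 counts) in PBMC (27.3-fold [18.3 to 42.4] in BM-MSC and 20.4-fold [13.7 to 31.9] in BMAC). ASNS stood at 32.1 CPM (548 counts) in BM-MSC, 27.1 CPM (410 counts) in BMAC and 4.08 CPM (63 counts) in PBMC, with ratios to PBMC of 7.87-fold (6.06 to 10.4) in BM-MSC and 6.65-fold (5.09 to 8.81) in BMAC. All 4 reached the floor through the marrow libraries alone.

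Both mitochondrial one-carbon enzymes were above the floor in every library. SHMT2 splits serine into glycine and a folate-bound one-carbon unit, and MTHFD2 oxidises that unit. SHMT2 stood at 29.5 CPM (504 counts) in BM-MSC, 58.7 CPM (888 counts) in BMAC and 10.2 CPM (158 counts) in PBMC, 2.89-fold (2.41 to 3.47) above PBMC in BM-MSC and 5.74-fold (4.84 to 6.84) above it in BMAC. Its row overlaps NXPH4, which stood at 5.68 CPM in BM-MSC, 29.1 in BMAC and 4.21 in PBMC and so was highest in the same library. MTHFD2, whose row overlaps SLC4A5, stood at 28.00 CPM (478 counts) in BM-MSC, 20.4 CPM (309 counts) in BMAC and 12.9 CPM (199 counts) in PBMC. It was 2.17-fold (1.84 to 2.58) higher in BM-MSC and 1.59-fold (1.32 to 1.90) in BMAC, the second below the 2-fold rule. Overlaps are named because it is not known whether strand was used in counting, and the values of such genes are uncertain.

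**Figure D2:**
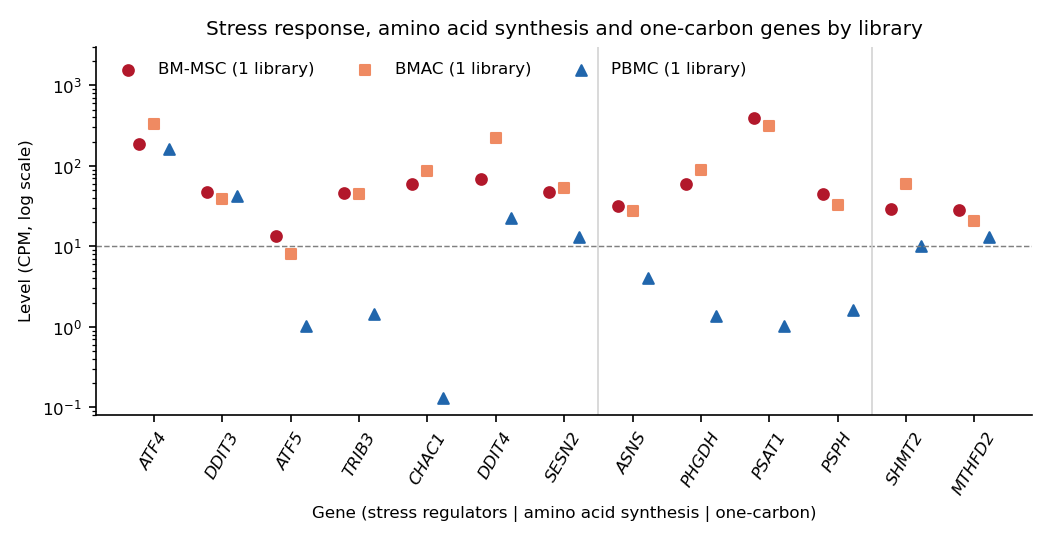
Level of the 13 genes listed by name in each library, in CPM on a log scale, with 1 point per library and a dashed line at 10 CPM. CHAC1, PSAT1, PHGDH, PSPH and TRIB3 lie below 2 CPM in PBMC and above 30 CPM in both marrow libraries. ATF4 runs from 161 CPM in PBMC to 328 in BMAC, and DDIT3 from 39.1 CPM in BMAC to 47.7 in BM-MSC.

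ATF4 and DDIT3 themselves differed far less than several genes known to respond to them. ATF4 stood at 186 CPM (3181 counts) in BM-MSC, 328 CPM (4967 counts) in BMAC and 161 CPM (2493 counts) in PBMC. It was 1.15-fold (1.10 to 1.22) higher in BM-MSC, within the rule, and 2.03-fold (1.94 to 2.14) higher in BMAC, just past it at a log2 ratio of 1.02. DDIT3, the factor CHOP that acts downstream of ATF4, stood at 47.7 CPM (814 counts) in BM-MSC, 39.1 CPM (591 counts) in BMAC and 42.5 CPM (657 counts) in PBMC, and its ratios to PBMC of 1.12 (1.01 to 1.24) in BM-MSC and 0.919 (0.821 to 1.03) in BMAC were within the rule. The sign of the second turned with TMM and median-of-ratios factors. The row of DDIT3 overlaps that of the synthetase MARS, so neither value is certain. ATF5, a related factor that is also controlled at translation, stood at 13.5 CPM (230 counts) in BM-MSC, 8.001 CPM (121 counts) in BMAC and 1.04 CPM (16 counts) in PBMC. It was 13.01-fold (7.84 to 23.1) above PBMC in BM-MSC, and in BMAC, below the floor, 7.72-fold (4.57 to 13.9) above. ATF5 overlaps IL4I1 and NUP62, at 14.4 CPM in BM-MSC, 18.6 in BMAC and 34.2 in PBMC and at 4.63 CPM in BM-MSC, 9.65 in BMAC and 18.4 in PBMC, both of them highest in PBMC, where ATF5 was lowest.

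CHAC1 and TRIB3, targets of the ATF4 and CHOP branch, were nearly absent from the PBMC library. CHAC1 degrades glutathione, and it stood at 60.1 CPM (1026 counts) in BM-MSC, 85.7 CPM (1296 counts) in BMAC and 0.129 CPM (2 counts) in PBMC. From those 2 counts its ratio was 464-fold (128 to 3838) in BM-MSC and 662-fold (183 to 5471) in BMAC. TRIB3, a pseudokinase that restrains ATF4, stood at 45.5 CPM (776 counts) in BM-MSC, 45.3 CPM (685 counts) in BMAC and 1.42 CPM (22 counts) in PBMC. It was 31.9-fold (20.9 to 51.2) above PBMC in BM-MSC and 31.8-fold (20.8 to 51.1) above it in BMAC, at nearly the same level in both marrow libraries.

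The members that restrain the growth kinase complex mTORC1 were higher in the marrow libraries too. DDIT4, also known as REDD1, stood at 69.3 CPM (1183 counts) in BM-MSC, 223 CPM (3371 counts) in BMAC and 22.3 CPM (345 counts) in PBMC. BMAC held the most, with ratios to PBMC of 3.10-fold (2.75 to 3.51) in BM-MSC and 9.98-fold (8.93 to 11.2) in BMAC. DDIT4 also responds to hypoxia and glucocorticoids. SESN2, a sestrin that senses leucine, stood at 47.4 CPM (809 counts) in BM-MSC, 53.03 CPM (802 counts) in BMAC and 12.9 CPM (200 counts) in PBMC, 3.66-fold (3.13 to 4.29) above PBMC in BM-MSC and 4.10-fold (3.50 to 4.81) above it in BMAC. Of the 7 stress regulators 5 were thus higher in BM-MSC (26.4% of all genes) and 5 of the 6 above the floor in BMAC (24.8%). ATF5 was counted in the first and ATF4 in the second. Of the regulators above the floor, 3 in BM-MSC and 2 in BMAC reached 10 CPM in the marrow library alone, which favours an upward call.

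All 20 cytosolic synthetases were above the floor, of which 8 were higher in BM-MSC than in PBMC (26.4% of all genes) and 10 in BMAC than in PBMC (24.8%). The other 12 in BM-MSC and 10 in BMAC lay within the rule, and 0 were lower. Their median log2 ratios were 0.81 in BM-MSC and 0.91 in BMAC. With TMM factors 11 passed the rule upwards in BM-MSC, where 33.1% of all genes did, and 13 in BMAC, where 30.2% did. Counts of the 20 genes summed to 1931 CPM in BM-MSC, 1996 in BMAC and 981 in PBMC, a ratio to PBMC of 1.97 (1.93 to 2.01) in BM-MSC and 2.03 (1.99 to 2.07) in BMAC.

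WARS and GARS led the cytosolic enzymes. WARS, the tryptophanyl synthetase, stood at 217 CPM (3709 counts) in BM-MSC, 139.6 CPM (2111 counts) in BMAC and 38.2 CPM (590 counts) in PBMC, which was 5.69-fold (5.21 to 6.22) above PBMC in BM-MSC and 3.65-fold (3.33 to 4.01) above it in BMAC. WARS is known in human cells as a gene induced by interferon gamma. Of 3 other interferon-induced genes above the floor, 3 were lower in BM-MSC (31.8% of all genes) and 2 in BMAC (26.4%) than in PBMC. With TMM factors 1 was lower in BM-MSC (25.1% of all genes) and 2 in BMAC (20.5%). GBP2 stood at 5.57 CPM in BM-MSC, 4.63 in BMAC and 53.2 in PBMC. IRF1, whose row overlaps SLC22A5, stood at 15.2 CPM in BM-MSC, 21.1 in BMAC and 38.5 in PBMC. The relation of WARS to these genes was not tested. GARS, the glycyl synthetase, whose gene serves both cytosol and mitochondria, stood at 192 CPM (3274 counts) in BM-MSC, 190.0 CPM (2873 counts) in BMAC and 40.3 CPM (623 counts) in PBMC. It was 4.76-fold (4.36 to 5.19) above PBMC in BM-MSC and 4.71-fold (4.32 to 5.14) above it in BMAC.

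Another 6 cytosolic synthetases passed the 2-fold rule in both marrow libraries. AARS, which charges alanine transfer RNA, stood at 149 CPM (2542 counts) in BM-MSC, 160.4 CPM (2425 counts) in BMAC and 46.1 CPM (712 counts) in PBMC, 3.23-fold (2.97 to 3.52) above PBMC in BM-MSC and 3.48-fold (3.20 to 3.79) above it in BMAC. TARS, the threonyl enzyme, stood at 61.6 CPM in BM-MSC, 66.2 in BMAC and 22.1 in PBMC (2.78-fold [2.46 to 3.15] in BM-MSC and 2.99-fold [2.64 to 3.39] in BMAC). SARS, the seryl enzyme, stood at 164 CPM in BM-MSC, 160.4 in BMAC and 62.2 in PBMC (2.64-fold [2.45 to 2.84] in BM-MSC and 2.58-fold [2.39 to 2.78] in BMAC). These enzymes were alike in BM-MSC and BMAC, with log2 ratios between them of -0.11, -0.10 and 0.03. EPRS, a single protein that charges both glutamate and proline transfer RNAs, stood at 110.0 CPM in BM-MSC, 125 in BMAC and 43.8 in PBMC (2.51-fold [2.30 to 2.74] in BM-MSC and 2.86-fold [2.61 to 3.12] in BMAC). VARS, the valyl enzyme, stood at 49.97 CPM in BM-MSC, 36.2 in BMAC and 17.4 in PBMC (2.88-fold [2.51 to 3.32] in BM-MSC and 2.09-fold [1.80 to 2.43] in BMAC). HARS, the histidyl enzyme, reached the floor through the marrow libraries, at 17.3 CPM in BM-MSC, 18.5 in BMAC and 7.77 in PBMC (2.22-fold [1.79 to 2.77] in BM-MSC and 2.38-fold [1.92 to 2.98] in BMAC). HARS in both comparisons and VARS in BMAC fell below the rule with a pseudocount of 5 CPM, as did MTHFD2 in BM-MSC.

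CARS and IARS passed the rule in BMAC but not in BM-MSC. CARS, the cysteinyl enzyme, stood at 37.3 CPM in BM-MSC, 46.9 in BMAC and 18.3 in PBMC, and its ratio in BM-MSC of 2.04-fold (1.77 to 2.35) lay just inside the rule after the pseudocount. IARS, the isoleucyl enzyme, stood at 187 CPM (3198 counts) in BM-MSC, 273 CPM (4129 counts) in BMAC and 129 CPM (1991 counts) in PBMC, 1.45-fold (1.37 to 1.54) above PBMC in BM-MSC and 2.12-fold (2.01 to 2.24) in BMAC. With TMM factors CARS, KARS and NARS also passed in BM-MSC, and KARS, NARS and YARS in BMAC. NARS, the asparaginyl enzyme, stood at 257 CPM in BM-MSC, 234 in BMAC and 138 in PBMC, and KARS, the lysyl enzyme of both compartments, at 133 CPM in BM-MSC, 138 in BMAC and 79.4 in PBMC. YARS, the tyrosyl enzyme, stood at 48.5 CPM in BM-MSC, 68.8 in BMAC and 39.5 in PBMC.

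The remaining cytosolic genes lay within 2-fold of PBMC in both libraries. DARS, the aspartyl enzyme, stood at 43.6 CPM in BM-MSC, 62.2 in BMAC and 61.2 in PBMC, 0.712 (0.646 to 0.785) times PBMC in BM-MSC and 1.02 (0.928 to 1.11) times in BMAC. The 2 subunits of the phenylalanyl enzyme come from separate genes. FARSA, the alpha subunit, stood at 24.3 CPM in BM-MSC, 12.6 in BMAC and 15.4 in PBMC, and FARSB, the beta subunit, whose row overlaps LOC110256939, at 33.04 CPM in BM-MSC, 22.9 in BMAC and 45.4 in PBMC. FARSB was 1.38-fold (1.23 to 1.54) higher in PBMC than in BM-MSC and 1.99-fold (1.74 to 2.27) higher than in BMAC, where its log2 ratio of -0.96 just missed the rule. LARS, the leucyl enzyme, stood at 61.3 CPM in BM-MSC, 110.0 in BMAC and 75.5 in PBMC. Its ratio to PBMC was 0.812 (0.746 to 0.883) in BM-MSC, a direction that turned with TMM and median-of-ratios factors. In BMAC the ratio was 1.46 (1.35 to 1.57). QARS, the glutaminyl enzyme, stood at 43.4 CPM in BM-MSC, 48.3 in BMAC and 30.8 in PBMC, and MARS, the methionyl enzyme, whose row overlaps ARHGAP9 and DDIT3, at 45.99 CPM in BM-MSC, 46.3 in BMAC and 34.6 in PBMC. RARS, the arginyl enzyme, stood at 55.1 CPM in BM-MSC, 35.4 in BMAC and 36.00 in PBMC, with ratios to PBMC of 1.53 (1.38 to 1.70) in BM-MSC and 0.983 (0.871 to 1.11) in BMAC. The sign of the second turned with TMM and median-of-ratios factors.

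**Figure D3:**
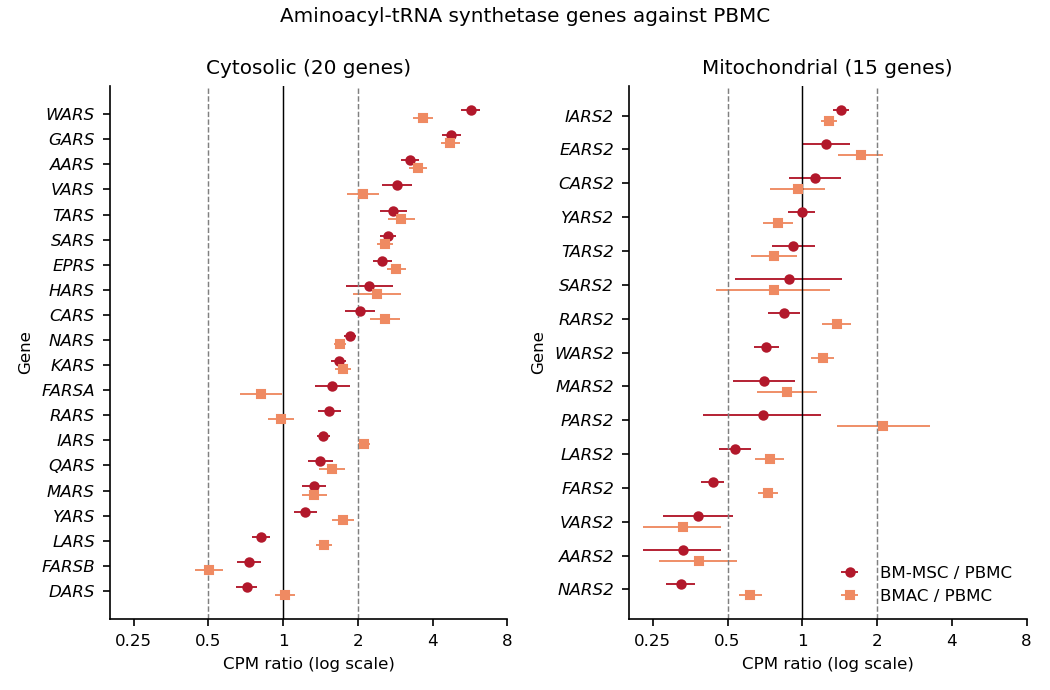
CPM ratio of 20 cytosolic and 15 mitochondrial synthetase genes in BM-MSC and in BMAC over PBMC on a log scale, with bars for the 95% interval of counting error and dashed lines at 2-fold either way. Most cytosolic genes lie to the right of 1, up to 5.69 for WARS, whereas most mitochondrial genes lie at or to the left of 1.

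Cytosolic enzymes were also divided by whether they sit in the multi-synthetase complex, and the difference between the divisions was not tested. Of the 8 members of the complex (EPRS, IARS, LARS, MARS, QARS, KARS, RARS and DARS) 1 was higher in BM-MSC and 2 in BMAC than in PBMC, with median log2 ratios of 0.51 and 0.59. Of the 12 outside it 7 were higher in BM-MSC and 8 in BMAC, with medians of 1.22 and 1.23. Over all genes 26.4% were higher in BM-MSC and 24.8% in BMAC. The summed level of the complex members was 1.39-fold (1.35 to 1.43) that of PBMC in BM-MSC and 1.71-fold (1.66 to 1.76) in BMAC. For the 12 others it was 2.55-fold (2.48 to 2.62) in BM-MSC and 2.36-fold (2.29 to 2.42) in BMAC. Scaffold proteins hold the complex together. Of their genes AIMP1 stood at 102 CPM in BM-MSC, 81.99 in BMAC and 94.5 in PBMC and EEF1E1 at 11.1 CPM in BM-MSC, 11.4 in BMAC and 12.2 in PBMC, both within the rule, while AIMP2, whose row overlaps EIF2AK1, was 2.14-fold (1.83 to 2.51) higher in BM-MSC and 1.89-fold (1.60 to 2.23) in BMAC, the second within the rule. By catalytic class, 3 of 10 class I and 5 of 10 class II cytosolic genes were higher in BM-MSC, beside 26.4% of all genes, and 5 of 10 of each in BMAC, beside 24.8%.

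None of the 16 mitochondrial synthetases was 2-fold higher in a marrow library above the floor. Over all genes 26.4% were higher in BM-MSC and 24.8% in BMAC. Of the 16, 7 stayed below 10 CPM in every library, among them AARS2, CARS2, MARS2, PARS2, SARS2 and VARS2. CARS2, the cysteinyl enzyme, stood at 9.14 CPM in BM-MSC, 7.80 in BMAC and 8.16 in PBMC. MARS2, the methionyl enzyme, stood at 5.21 CPM in BM-MSC, 6.48 in BMAC and 7.45 in PBMC, and SARS2, the seryl enzyme, at 2.05 CPM in BM-MSC, 1.79 in BMAC and 2.33 in PBMC. The signs of SARS2 in BM-MSC, and of CARS2 and MARS2 in BMAC, turned with TMM and median-of-ratios factors. Of the 9 above the floor, 2 were lower in BM-MSC (31.8% of all genes) and 0 in BMAC (26.4%) than in PBMC. Their median log2 ratio was -0.23 in BM-MSC and -0.31 in BMAC, and over all 16 it was -0.29 and -0.22. With TMM factors the median of those above the floor was 0.09 in BM-MSC and -0.04 in BMAC, so its sign turned in BM-MSC and not in BMAC. Relative to the median of all genes it was -0.07 with library totals and -0.14 with TMM factors in BM-MSC, and -0.19 and -0.25 in BMAC. The 16 genes summed to 312 CPM in BM-MSC, 378 in BMAC and 400.4 in PBMC.

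NARS2 and FARS2 were the 2 lower genes. NARS2, the mitochondrial asparaginyl enzyme, stood at 18.5 CPM (315 counts) in BM-MSC, 35.2 CPM (533 counts) in BMAC and 57.04 CPM (881 counts) in PBMC, 3.09-fold (2.71 to 3.53) higher in PBMC than in BM-MSC and 1.62-fold (1.45 to 1.81) higher than in BMAC. FARS2, the mitochondrial phenylalanyl enzyme, stood at 29.4 CPM (502 counts) in BM-MSC, 49.1 CPM (742 counts) in BMAC and 67.4 CPM (1041 counts) in PBMC (2.29-fold [2.06 to 2.55] higher in PBMC than in BM-MSC and 1.37-fold [1.25 to 1.51] higher than in BMAC), and with TMM or median-of-ratios factors it was within 2-fold in BM-MSC. In both genes BMAC lay between the other libraries. LARS2 showed the same order, at 17.9 CPM in BM-MSC, 24.6 in BMAC and 33.3 in PBMC. AARS2 and VARS2, below the floor, stood at 44, 45 and 120 counts and at 56, 43 and 133 counts in BM-MSC, BMAC and PBMC. Both would be counted as lower in either marrow library with a floor of 1 CPM.

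IARS2, the mitochondrial isoleucyl enzyme, whose row overlaps RAB3GAP2, stood at 109.7 CPM in BM-MSC, 98.6 in BMAC and 76.9 in PBMC, within the rule (1.43-fold [1.33 to 1.53] in BM-MSC and 1.28-fold [1.19 to 1.38] in BMAC). EARS2, the glutamyl enzyme, whose row overlaps UBFD1, stood at 11.8 CPM in BM-MSC, 16.3 in BMAC and 9.52 in PBMC. RARS2, the arginyl enzyme, stood at 20.7 CPM in BM-MSC, 33.7 in BMAC and 24.5 in PBMC, and WARS2, the tryptophanyl enzyme, whose row overlaps HAO2, at 30.3 CPM in BM-MSC, 51.2 in BMAC and 42.4 in PBMC, both highest in BMAC. In BM-MSC the signs of RARS2, TARS2 and YARS2 turned with TMM and median-of-ratios factors. YARS2, the tyrosyl enzyme, overlapping DNM1L, stood at 30.9 CPM in BM-MSC, 24.9 in BMAC and 31.1 in PBMC, and TARS2, the threonyl enzyme, overlapping ECM1, at 12.1 CPM in BM-MSC, 10.2 in BMAC and 13.2 in PBMC.

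The ratio of a cytosolic synthetase to its mitochondrial counterpart within a library does not depend on library scaling. It is a ratio of counts and not of transcript numbers, so only its change between libraries is compared, and it was chosen as a measure after the values were seen. For 12 amino acids with 1 cytosolic and 1 mitochondrial gene, the ratio was higher in BM-MSC than in PBMC beyond counting error for 11, lower for 0 and within it for 1. In BMAC against PBMC it was higher for 11, lower for 1 and within counting error for 0. No floor was applied to the pairs. AARS2, CARS2, MARS2, SARS2 and VARS2 stood below 10 CPM in every library, and some pair genes overlap other rows, as given above. The median change of the ratio was 2.45-fold in BM-MSC and 2.71-fold in BMAC. Counts summed over the 20 cytosolic synthetases were 6.18 times those summed over the 16 mitochondrial ones in BM-MSC, 5.27 times in BMAC and 2.45 times in PBMC. GARS and KARS, which serve both compartments, were counted as cytosolic.

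The alanine pair changed most. The count ratio of AARS to AARS2 was 57.8 in BM-MSC, 53.9 in BMAC and 5.93 in PBMC, a change of 9.74-fold (6.76 to 14.2) in BM-MSC and 9.08-fold (6.32 to 13.2) in BMAC that rests on the counts of AARS2 given above. The ratio of WARS to WARS2 was 7.16 in BM-MSC, 2.73 in BMAC and 0.901 in PBMC, so that BM-MSC stood apart from BMAC as well. The asparagine pair, NARS to NARS2, ran in the same order, at 13.9 in BM-MSC, 6.65 in BMAC and 2.43 in PBMC. The ratio of VARS to VARS2 was 15.2 in BM-MSC, 12.7 in BMAC and 2.02 in PBMC. The exceptions were IARS to IARS2 in BM-MSC (1.02 [0.929 to 1.12] times PBMC) and RARS to RARS2 in BMAC (0.715 [0.596 to 0.858] times PBMC). A ratio within a library shows unequal change, and not which of the 2 genes differed.

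**Figure D4:**
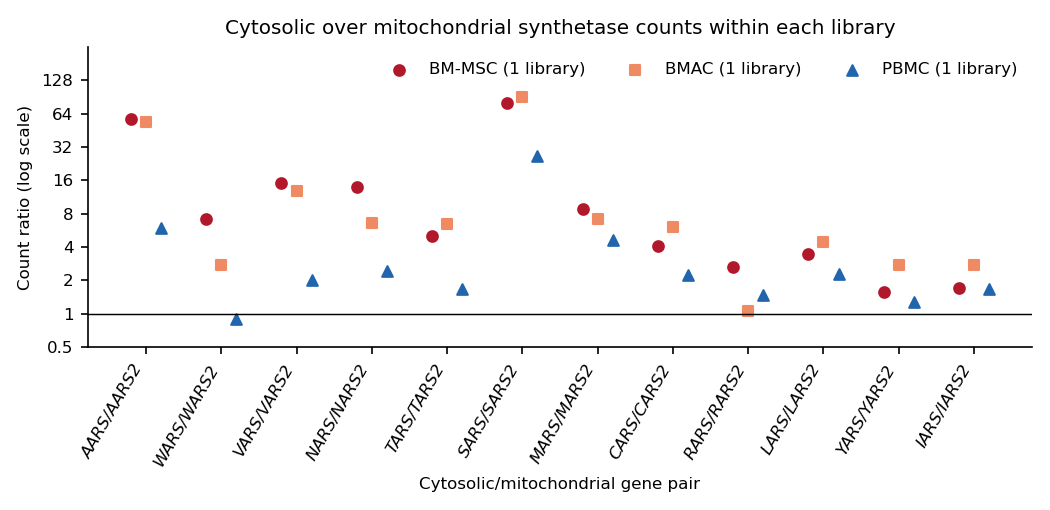
Counts of the cytosolic gene over counts of the mitochondrial gene within each library for 12 amino acids, on a log scale, with 1 point per library. The PBMC point is the lowest in all pairs but RARS/RARS2.

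Only 1 member passed the rule between the 2 marrow populations. In BM-MSC against BMAC 42 members were above the floor, of which 0 were 2-fold higher in BM-MSC, where the share of 10303 genes was 8.20%, and 1 was lower, where it was 11.1%. That gene was DDIT4, at 69.3 CPM in BM-MSC against 223 CPM in BMAC, or 3.22-fold (3.01 to 3.44) higher in BMAC. The members' median log2 ratio was -0.10, beside -0.09 over all genes. The 4 amino acid synthesis genes lay between -0.54 for PHGDH and 0.41 for PSPH.

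Several members came close to the rule between the marrow libraries. SHMT2 stood at 29.5 CPM in BM-MSC and 58.7 in BMAC (log2 ratio -0.97), NARS2 at 18.5 and 35.2 CPM (-0.90) and LARS at 61.3 and 110.0 CPM (-0.83). ATF4 stood at 186 CPM in BM-MSC and 328 in BMAC, 1.76-fold (1.69 to 1.84) higher in BMAC. In the other direction FARSA stood at 24.3 CPM in BM-MSC and 12.6 in BMAC (1.94-fold [1.63 to 2.31]). Further within the rule lay RARS at 55.1 and 35.4 CPM (1.56-fold [1.40 to 1.73]) and WARS at 217 and 139.6 CPM (1.56-fold [1.48 to 1.64]). The smallest differences were those of TRIB3, GARS and MARS, with log2 ratios of 0.01, 0.01 and -0.01, and the sign of MARS turned with TMM and median-of-ratios factors. PARS2, the mitochondrial prolyl enzyme, below the floor, had 26 counts in BM-MSC and 70 in BMAC, with 34 in PBMC. The proliferation marker MKI67 stood at 2.52 CPM in BM-MSC and 30.9 in BMAC, and its relation to these genes was not tested.

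The genes that act above ATF4 were listed as the eIF2 kinases, their regulators, their substrate EIF2S1 and regulators of the eIF2 phosphatase. Of these 9 genes 0 were higher and 1 lower in BM-MSC than in PBMC among 8 above the floor, and 1 was higher and 1 lower in BMAC among 9. Over all genes 26.4% were higher and 31.8% lower in BM-MSC, and 24.8% and 26.4% in BMAC. The lower gene was EIF2AK3, the kinase PERK, at 44.00 CPM (751 counts) in BM-MSC, 81.8 CPM (1237 counts) in BMAC and 254 CPM (3923 counts) in PBMC, 5.77-fold (5.34 to 6.25) higher in PBMC than in BM-MSC and 3.11-fold (2.91 to 3.31) higher than in BMAC. EIF2AK4, the kinase GCN2, whose row overlaps SRP14, stood at 199 CPM in BM-MSC, 147 in BMAC and 101 in PBMC, just within the rule in BM-MSC (1.97-fold [1.86 to 2.09]). With TMM factors EIF2AK4 passed it, so that 1 of the 8 was higher in BM-MSC (33.1% of all genes). With median-of-ratios factors 2 of the 8 were higher (33.7%). PPP1R15A, also known as GADD34, which reverses eIF2 phosphorylation and is itself induced by the response, stood at 8.55 CPM in BM-MSC, 14.5 in BMAC and 1.55 in PBMC, 9.36-fold (6.13 to 14.9) above PBMC in BMAC. EIF2AK2, the kinase PKR, separated the marrow libraries, at 144 CPM in BM-MSC, 56.2 in BMAC and 90.8 in PBMC (2.57-fold [2.38 to 2.78] higher in BM-MSC than in BMAC).

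Factors that act beside ATF4 were split. NUPR1, whose row overlaps LOC110260087, stood at 98.9 CPM (1689 counts) in BM-MSC, 136 CPM (2055 counts) in BMAC and 0.777 CPM (12 counts) in PBMC, 127-fold (72.7 to 247) above PBMC in BM-MSC and 175-fold (99.9 to 339) above it in BMAC. JDP2 was 2.72-fold (2.41 to 3.06) higher in BM-MSC and 2.64-fold (2.34 to 2.98) higher in BMAC than in PBMC. ATF3 and CEBPG, both themselves targets of ATF4, lay within the rule, at 25.02 CPM in BM-MSC, 36.8 in BMAC and 27.2 in PBMC and at 27.7 CPM in BM-MSC, 39.3 in BMAC and 30.2 in PBMC. CEBPB had 2 counts in BM-MSC and 0 in the other libraries, and BATF2 at most 23 counts. Whether the CEBPB row covers the counted end of its transcript was not examined, so these counts do not show that the gene is silent.

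Of 14 other known ATF4 targets 13 were above the floor in each comparison with PBMC, and 10 were higher in BM-MSC (26.4% of all genes) and 10 in BMAC (24.8%), with 0 lower. The share of these that reached 10 CPM in the marrow library alone was 7 of 13 in both. PYCR1, the last enzyme of proline synthesis, stood at 169 CPM (2879 counts) in BM-MSC, 155 CPM (2338 counts) in BMAC and 2.91 CPM (45 counts) in PBMC (57.9-fold [43.2 to 79.6] in BM-MSC and 53.1-fold [39.5 to 72.96] in BMAC). CBS, which forms cystathionine, stood at 24.9 CPM (425 counts) in BM-MSC, 101 CPM (1520 counts) in BMAC and 1.23 CPM (19 counts) in PBMC. It was 20.2-fold (12.8 to 33.96) above PBMC in BM-MSC and 81.7-fold (52.1 to 136) above it in BMAC, and lower in BM-MSC than in BMAC. VLDLR, a lipoprotein receptor, stood at 81.3 CPM in BM-MSC, 27.5 in BMAC and 3.76 in PBMC (21.7-fold [16.7 to 28.7] in BM-MSC and 7.33-fold [5.56 to 9.82] in BMAC). ATF3, CEBPG and XPOT, a transfer RNA exporter whose row overlaps C5H12orf56, were the 3 within the rule in both.

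Amino acid transporters supply the enzymes from outside the cell. Of 10 listed, 7 reached the floor in BM-MSC against PBMC with 4 higher (26.4% of all genes), and 8 in BMAC against PBMC with 6 higher (24.8%), and 0 were lower. SLC6A9, a glycine carrier whose row overlaps CCDC24, stood at 57.2 CPM in BM-MSC, 106 in BMAC and 20.8 in PBMC, SLC1A5, a glutamine carrier, at 83.5 CPM in BM-MSC, 79.7 in BMAC and 25.8 in PBMC and SLC7A11, the cystine carrier, at 139 CPM in BM-MSC, 234 in BMAC and 58.98 in PBMC. SLC7A5, the leucine carrier, stood at 8.08 CPM in BM-MSC, 17.9 in BMAC and 2.40 in PBMC (7.45-fold [5.27 to 10.8] above PBMC in BMAC). In folate one-carbon metabolism 2 of 6 genes were called higher and 1 lower in BM-MSC, and 3 of 5 higher and 1 lower in BMAC, against the same shares of all genes. MTHFD1L (overlapping LOC106508814), a mitochondrial enzyme, stood at 22.03 CPM in BM-MSC, 65.9 in BMAC and 7.77 in PBMC, and MTHFD2L (overlapping EPGN) at 11.1 CPM in BM-MSC, 25.5 in BMAC and 2.91 in PBMC.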

How the data were processed

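Per the labels' protocols, total RNA was taken up in Trizol and made into Lexogen QuantSeq libraries. The deposited values are whole-number raw counts per gene row. The authors' tools were Bowtie2 and bedtools, per the submitters' processing notes. The build, annotation, strand setting and treatment of multiply mapped reads were not given in the sources used here. Rows (26965) were summed by symbol (81 symbols had several rows). All 49 members were found in a RefSeq table of Sscrofa11.1, used only for names and overlaps, and 11 members overlap a row holding at least 25% of their count in some library.

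Counts were scaled to CPM by library total. No molecular identifiers are described, and intervals cover counting error only. Members and gene lists were chosen with earlier results of these data known. Named were members past 2-fold in any comparison, of the rest the 3 highest by CPM and the 3 smallest ratios, and up to 4 genes of each further list by size of ratio; other named genes were chosen after their values were seen. Values of a few genes, 1 of them a member, and of the synthetase pair that member belongs to are not reported here. Scaling, pseudocount, floor, overlap and fold alternatives were tried. Python 3.11.15, SciPy 1.17.1 and edgeR 4.0.16 (TMM factors only) were used.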

Additional observations from a re-analysis of the deposited data

How the results depend on the processing

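No paired analysis was possible because each population has 1 library, and for the same reason no library could be left out. The count of members higher stayed within 1.5 times except with a floor of 50 CPM in BM-MSC against PBMC (10) and with the 4-fold rule (9 in BM-MSC and 9 in BMAC against PBMC), which by construction admit fewer genes. Members lower numbered 1 in BM-MSC against PBMC with TMM and median-of-ratios factors (FARS2 lost), 4 with a floor of 1 CPM and with no floor (AARS2 and VARS2 gained) and 0 with the 4-fold rule. In BMAC against PBMC they numbered 2 with a floor of 1 CPM or none, and in BM-MSC against BMAC 2 with those floors (PARS2 gained) and 0 with the 4-fold rule. The members' median log2 ratio in BM-MSC against PBMC was 1.14 with TMM, 1.09 with median-of-ratios factors, 0.54 with a floor of 1 CPM or none, 1.06 without overlapping members and 1.10 when the floor was 50 CPM. In BMAC against PBMC it was 1.07 with TMM, 1.08 with median-of-ratios factors, 1.15 without overlapping members and 1.35 when the floor was 50 CPM. No member past the rule changed sign under any of the scalings or pseudocounts. A count of 3 per library limits detection to between 0.176 and 0.198 CPM, and ratios against CHAC1 in PBMC, with 2 counts, are the least certain.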

Other observations

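Genes of the unfolded protein response, which shares ATF4 and CHOP with amino acid stress, were higher in the marrow libraries for 5 of 10 listed genes in both comparisons with PBMC, with 0 lower in BM-MSC and 1 in BMAC. Over all genes 26.4% were higher and 31.8% lower in BM-MSC, and 24.8% and 26.4% in BMAC. The lower gene was SDF2L1, at 9.78 CPM in BM-MSC, 5.03 in BMAC and 14.05 in PBMC, and ERN1, the sensor IRE1, stood at 32.1 CPM in BM-MSC, 29.8 in BMAC and 57.6 in PBMC, within the rule. DNAJB9, a chaperone helper, stood at 36.2 CPM in BM-MSC, 29.4 in BMAC and 3.76 in PBMC, and XBP1, the factor downstream of IRE1, at 66.4 CPM in BM-MSC, 66.1 in BMAC and 11.2 in PBMC. HSPA5, the chaperone BiP, stood at 595 CPM in BM-MSC, 484 in BMAC and 204 in PBMC (2.91-fold [2.80 to 3.03] above PBMC in BM-MSC and 2.37-fold [2.27 to 2.47] in BMAC).

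Among the other sestrins and the amino acid sensing genes of mTORC1, 4 of 7 were higher and 2 lower in BM-MSC than in PBMC, and 2 of 6 higher and 3 lower in BMAC, against the same shares of all genes. SESN3 went against SESN2, at 11.7 CPM (199 counts) in BM-MSC, 15.3 CPM (232 counts) in BMAC and 230.0 CPM (3553 counts) in PBMC. It was higher in PBMC by 19.7-fold (17.1 to 22.9) than in BM-MSC and by 14.99-fold (13.1 to 17.2) than in BMAC. SESN1, whose row overlaps ARMC2 and LOC106508918, was also highest in PBMC, at 48.4 CPM in BM-MSC, 28.7 in BMAC and 74.2 in PBMC. It was lower by the rule in BMAC and within it in BM-MSC. RRAGC, in contrast, was higher in both marrow libraries, at 212 CPM in BM-MSC, 132 in BMAC and 48.4 in PBMC. DEPTOR, an inhibitor of mTOR whose row overlaps DSCC1, stood at 14.4 CPM in BM-MSC, 19.2 in BMAC and 81.8 in PBMC. RRAGD, a Rag GTPase, separated the marrow libraries, at 14.9 CPM (254 counts) in BM-MSC, 0.727 CPM (11 counts) in BMAC and 6.34 CPM (98 counts) in PBMC, 20.5-fold (11.2 to 41.5) higher in BM-MSC than in BMAC. Rows for 48 transfer RNA symbols held 0.00991% of counts in BM-MSC, 0.00743% in BMAC and 0.00776% in PBMC.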
